A study of Mus musculus with 12 samples.

Results

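The 45 genes described here are the DNA replication and G1/S genes of mouse: the factors that license, open and copy replication origins, the enzymes that supply nucleotides, the regulators that carry a cell from G1 into S phase, and chromatin factors that follow the fork. They were chosen as a list of gene symbols, with earlier results of these data known. All 45 were found among the 24619 symbols of the deposited count table. All 45 were also among the 14400 genes tested, and the lowest count of any of them in any library was 713.

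Replication is prepared in G1, when the origin recognition complex (ORC), Cdc6 and Cdt1 load the ring-shaped MCM helicase onto DNA. At the G1/S transition, cyclin E with its kinase and the E2F transcription factors, released from the retinoblastoma protein, switch on most of the genes listed here, and Cdc45 and the GINS complex turn the loaded rings into working helicases. In heart tissue fibroblasts divide rarely, but they enter the cell cycle after injury and in culture with serum. TGF-beta1, which activates fibroblasts to make matrix, is known to restrain this transition in many cell types.

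The cells were cardiac fibroblasts of mouse taken into primary culture, grown with 10% serum, starved for 12 h and then kept for 24 h in conditioned medium, which is medium that adipocytes had been growing in. The 12 RNA libraries formed 4 groups of 3. In VEC_CM the adipocytes that had conditioned the medium carried a vector lentivirus, and in OE_CM a lentivirus that overexpresses the human microRNA hsa-miR-548ay. TGF_VEC_CM and TGF_KD_CM both had TGF-beta1 as well, with medium of adipocytes carrying vector lentivirus in the former and a lentivirus that inhibits hsa-miR-548ay in the latter. All groups therefore share starvation and medium from infected adipocytes, and no group without conditioned medium was analysed here. The labels do not give the source of the adipocytes, the dose of TGF-beta1 or any cell count, and they do not say whether a group's libraries came from separate cultures, so a p-value speaks of the spread among these libraries alone, which can be technical.

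Libraries held 33379207 to 37226153 counts. Fibroblast genes were high, with Col1a2 at 4320 to 4990 CPM (counts scaled to library size with TMM factors) and Col1a1 at 1290 to 1800 CPM. Pdgfra averaged 193.7 ± 9.5 CPM in VEC_CM, 96 ± 2.49 in OE_CM, 168.1 ± 4 in TGF_VEC_CM and 216.4 ± 4.95 in TGF_KD_CM (SD, n = 3). Vim averaged 3107 ± 44.8, 3172 ± 13.5, 1764 ± 34 and 2133 ± 2.1 CPM in the same order. Other fibroblast markers were close to absent: Lum had at most 1 count, Dcn at most 10 and Thy1 at most 18 in any library. Of other cell types, the endothelial markers Emcn and Cldn5, the cardiomyocyte markers Tnni3 and Actc1 and the T cell marker Cd3e had at most 1 count, whereas Tnnt2, Msln and Fabp4 were present. Leukocyte markers were present too: Lyz2 had 312 to 876 counts per library, Cd14 213 to 396 and Cd68 151 to 336. The endothelial markers Pecam1 and Vwf reached 30 and 27 counts, and both were called higher in TGF_VEC_CM than in VEC_CM. Tnnt2, a troponin gene of the cardiomyocyte list, averaged 71.9 ± 3.33 CPM in VEC_CM, 162.5 ± 2.23 in OE_CM, 109.2 ± 5.85 in TGF_VEC_CM and 98.9 ± 3.37 in TGF_KD_CM (SD, n = 3). Msln, a mesothelial marker, averaged 60.9 ± 3.32, 48.3 ± 1.67, 91.3 ± 1.79 and 76.7 ± 1.83 CPM in the same order. Other mesothelial markers were close to absent: Wt1 had at most 2 counts, Upk3b at most 1 and Krt19 at most 18. The 7 adipocyte markers summed to between 265 and 279 CPM in VEC_CM, between 97.5 and 102 in OE_CM, between 186 and 198 in TGF_VEC_CM and between 152 and 163 in TGF_KD_CM. Most of this sum was 1 gene, Fabp4, at 260.5 ± 7.36 CPM in VEC_CM and 85.7 ± 2.35 in OE_CM. Cidec, of the same list, moved the other way, averaging 7.92 ± 0.716, 13.25 ± 0.994, 11.21 ± 0.403 and 16.97 ± 1.45 CPM in the same order. The 9 leukocyte markers summed to 46 to 48.6, 23.5 to 38.4, 35.5 to 39.1 and 32 to 34.2 CPM in the same order. Acta2, a smooth muscle marker that activated fibroblasts also make, had at most 27 counts in any library. Pdgfra, Vim, Tnnt2, Msln, Pecam1, Vwf and the sums of adipocyte and leukocyte markers differed between groups, and their part in the results was not tested.

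Many genes of S phase carry E2F sites close to their start, so the upstream sequences were searched for 4 letter forms of the site (TTTCCCGC, TTTGGCGC, TTTCGCGC and TTTGCCGC) on both strands, within 250 bases before each RefSeq start. RefSeq promoters on GRCm38.p6 were found for 37 of the 45 genes, and 9 of the 37 (24.3%) held at least 1 form. Over all genes with a RefSeq promoter the share was 2.16%. Per promoter it was 21.4% of 42 for the replication genes, 1.86% of 32851 for all, and 2.87% of 12267 other promoters whose GC content lay within the interquartile range of the replication genes (52.4% to 67.2%). The holders were Orc1, Cdc6, Mcm5, Mcm6, Mcm7, Gins3, Rfc3, Pola1 and Uhrf1. The sequences that follow are those of the 5 holders with the smallest p-values among genes called in either test of the microRNA. They are shown because they carry the letters and lead those calls: Mcm5, Mcm6, Mcm7 and Rfc3 rose in one test and Orc1 in the other, a choice that used the measured changes. Each is written 5′ to 3′ on the gene's own strand, with the matched letters in capitals.
Mcm5: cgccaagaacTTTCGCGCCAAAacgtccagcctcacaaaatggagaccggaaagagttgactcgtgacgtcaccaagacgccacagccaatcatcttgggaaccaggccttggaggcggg
Mcm6: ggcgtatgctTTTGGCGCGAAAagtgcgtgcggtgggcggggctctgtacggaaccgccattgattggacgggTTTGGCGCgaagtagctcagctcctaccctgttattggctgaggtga
Mcm7: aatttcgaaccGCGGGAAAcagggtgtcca
Rfc3: ccggaagtgacgtcgcacgcTTTCGCGCtc
Orc1: ttcggttagtgGCGCGAAAagttttctcct
The Mcm5 stretch is chr8:75109346-75109465 on the plus strand and that of Mcm6 is chr1:128359706-128359825 on the minus strand. Those of Mcm7 (chr5:138172030-138172059, minus), Rfc3 (chr5:151651209-151651238, minus) and Orc1 (chr4:108579416-108579445, plus) are cut to 30 bases, because exons annotated in GENCODE M21 overlap the longer window. The cut does not avoid those exons: all 30 bases shown are exonic in that annotation for Mcm7 and Rfc3, and 23 for Orc1. The Mcm7 and Orc1 stretches each lie within the span of the annotated gene. In Mcm5, and in the upstream cluster of Mcm6, a match on one strand overlaps a match on the other, so that 12 letters are in capitals as 1 block. Rfc3 has its match at 10 to 3 bases before the start, Orc1 at 27 to 20, and Mcm7 at 165 to 158. A match is a description of the letters, not evidence of binding.

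Per length of transcript, the genes spanned a wide range. The mean over the 12 libraries in the deposited FPKM values (fragments scaled to transcript length and library total) ran from 7.93 for Prim2, a primase subunit, to 271 for Rrm2, the small subunit of ribonucleotide reductase. Pcna, the sliding clamp of the polymerases, followed Rrm2 with 201, then Rrm1 with 109, Tk1 with 100.4 and Uhrf1 with 94.9. The 6 helicase subunits Mcm2 to Mcm7 lay between 62.2 and 90.5. Cdc6, which loads them, was among the lowest at 9.47. Within the helicase Mcm2 was the highest and Mcm4 the lowest in all 12 libraries, with a ratio that ran from 1.29 to 1.36 for VEC_CM, from 1.44 to 1.49 for OE_CM, from 1.61 to 1.67 for TGF_VEC_CM and from 1.36 to 1.51 for TGF_KD_CM.

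**Figure D1:**
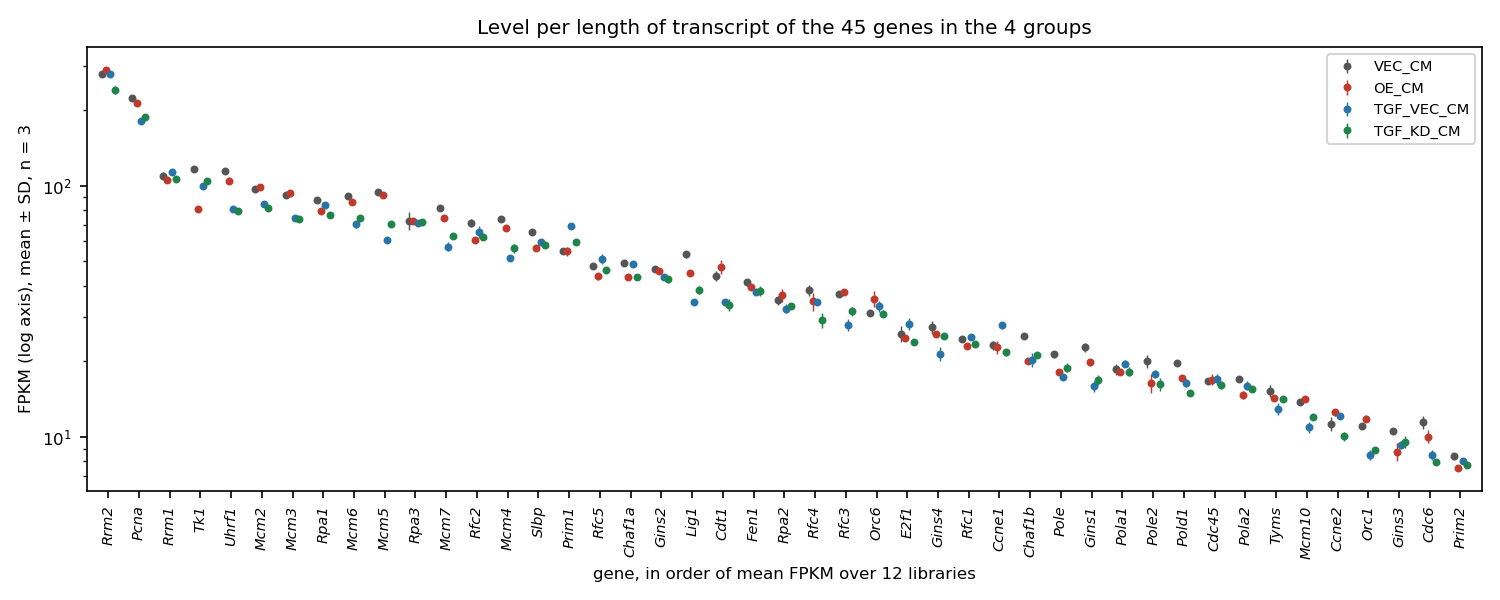
Level of each of the 45 genes as FPKM (log axis), points and bars giving the mean and SD of 3 libraries for each of the 4 groups, in order of the mean over 12 libraries. Rrm2 and Pcna stand above the rest at means of 271 and 201 FPKM, and Prim2 is lowest at 7.93; FPKM is scaled to the library total, not by TMM.

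With TMM scaling, the summed level of the 45 genes differed by less than 1 SD between the overexpression and vector media. It lay lower in both groups with TGF-beta1. The 45 genes summed to 6646 ± 56.2 CPM in VEC_CM, 6606 ± 112.7 in OE_CM, 5602 ± 34.6 in TGF_VEC_CM and 5608 ± 93.5 in TGF_KD_CM (SD, n = 3 each). The near-equality of VEC_CM and OE_CM depends on the TMM factors. As a share of raw counts, the 45 genes held 0.6642% to 0.6719% in VEC_CM and 0.6232% to 0.6371% in OE_CM, without overlap. In single libraries, the median log2 difference of the 45 genes from the VEC_CM mean ran from -0.01 to 0.02 for VEC_CM, from -0.02 to 0.01 for OE_CM, from -0.24 to -0.21 for TGF_VEC_CM and from -0.23 to -0.17 for TGF_KD_CM. No range with TGF-beta1 overlapped one without it. In bulk RNA, fewer cells that express these genes and less RNA of them per cell cannot be told apart.

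The first question was what medium of adipocytes overexpressing the microRNA changes in the fibroblasts. Between OE_CM and VEC_CM, 9 of the 45 genes rose and 13 fell at an adjusted p under 0.05 (edgeR quasi-likelihood test, Benjamini-Hochberg over 14400 genes). Of all genes tested, 28.4% rose and 25.7% fell, against 20% and 28.9% of the 45. The median log2 change was -0.01 for the 45 genes and -0.01 for all genes, and the median size of change was 0.10 against 0.23. None of the 45 changed 2-fold. This split depends on the library scaling. With upper quartile factors 3 of the 45 rose and 26 fell, at a median of -0.098 beside -0.095 for all genes. With limma on log2(FPKM + 1) 2 rose and 22 fell, at a median of -0.082 beside -0.045 for all genes. The shares of all genes called under these 2 settings are not given here. The rises of Orc1, Mcm2, Mcm3, Mcm10, Rpa2 and Rrm2 did not pass under either of these. Calls that held under all 14 alternatives with the same null hypothesis were the rises of Orc6 and Ccne2 and the falls of Rfc2, Pola2, Pold1, Pole, Pole2, Lig1, Tk1, Chaf1a, Chaf1b and Slbp.

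The second question was what medium of adipocytes with the microRNA inhibited changes when TGF-beta1 is present. Between TGF_KD_CM and TGF_VEC_CM, 12 of the 45 rose and 11 fell, against a background of 23.0% of all genes that rose and 20.2% that fell (26.7% and 24.4% of the 45). The median log2 change was -0.01 for the 45 and 0 for all genes, and the median size was 0.10 against 0.17. In both tests of the microRNA the shares of the 45 were near those of all genes. Rises of Mcm4, Mcm5, Mcm6, Mcm7, Gins4, Rfc3, Pole, Lig1 and Tyms and falls of Rfc4, Rpa1, Prim1, Rrm2, E2f1, Ccne1, Ccne2 and Chaf1a held under all 14 such alternatives.

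The vector groups, TGF_VEC_CM and VEC_CM, differ in TGF-beta1 with the same kind of medium, but they belong to different parts of the study. The labels do not say that these were run together, so TGF-beta1 and the part of the study cannot be told apart. Here 32 of the 45 genes fell and 2, Prim1 and Ccne1, rose, where 29.4% of all genes fell and 28.9% rose (71.1% and 4.44% of the 45). The median log2 change was -0.21 for the 45 against 0.004 for all genes. Against a null hypothesis of at most a 1.2-fold change, 17 of the 45 were lower in TGF_VEC_CM. The share of all genes that passed this stricter test is not given here, so that count has no background beside it. This comparison uses VEC_CM libraries that also serve the first and TGF_VEC_CM libraries that also serve the second, so its values are set beside theirs without any correlation.

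**Figure D2:**
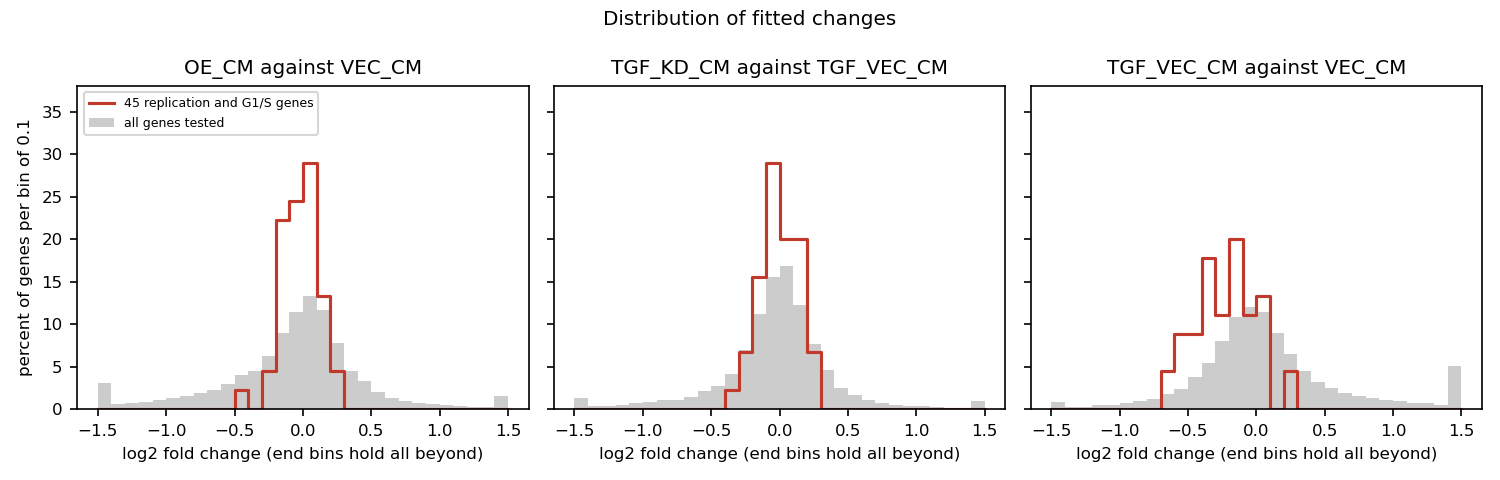
Distribution of fitted log2 fold changes of the 45 genes (red line) and of all 14400 genes tested (grey), as percent of genes per bin of 0.1, in 3 comparisons. The 45 genes are centred near 0 in the 2 tests of the microRNA (medians -0.01 and -0.01) and shifted to a median of -0.21 in TGF_VEC_CM against VEC_CM.

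In what follows, overexpression medium stands for OE_CM against VEC_CM, inhibition medium for TGF_KD_CM against TGF_VEC_CM, and the vector groups for TGF_VEC_CM against VEC_CM. Changes are log2 values with their standard error (SE). Counts of calls by role are to be read beside the shares over all genes. These were 28.4% risen and 25.7% fallen with overexpression medium, 23.0% and 20.2% with inhibition medium, and 28.9% and 29.4% between the vector groups. Among the 10 origin licensing genes, 5 rose and 1 fell with the overexpression medium, 4 rose with the inhibition medium, and 9 were lower in TGF_VEC_CM than in VEC_CM. The 6 helicase subunits were all lower in TGF_VEC_CM than in VEC_CM, but they did not move as 1 block in the tests of the microRNA: Mcm2 and Mcm3 passed in one test of the microRNA, and Mcm4 to Mcm7 in the other. Mcm5, a subunit of the ring, had CPM values of 320, 328 and 327 in VEC_CM, 334, 331 and 327 in OE_CM, 201, 205 and 199 in TGF_VEC_CM and 240, 241 and 239 in TGF_KD_CM. All VEC_CM and OE_CM libraries were at 320 or more, TGF_VEC_CM was lowest, and TGF_KD_CM lay between without overlap. The log2 change was -0.69 ± 0.03 (SE) in TGF_VEC_CM against VEC_CM (adjusted p = 7.63e-34), a 1.61-fold fall, and 0.25 ± 0.03 in TGF_KD_CM against TGF_VEC_CM (adjusted p = 8.38e-13). With the overexpression medium it was 0.03 ± 0.03 and did not pass (adjusted p = 0.38), and with upper quartile factors its sign turned (-0.06, adjusted p = 0.0326). Mcm4 had CPM of 267, 264 and 259 in VEC_CM, 257, 260 and 247 in OE_CM, 180, 176 and 179 in TGF_VEC_CM and 199, 210 and 192 in TGF_KD_CM. It followed the same order as Mcm5, with log2 changes of -0.56 ± 0.03 (adjusted p = 1.16e-26) between the vector groups and 0.17 ± 0.03 (adjusted p = 1.97e-06) with inhibition medium. Mcm7 had CPM of 233, 236 and 232 in VEC_CM, 224, 230 and 223 in OE_CM, 162, 163 and 153 in TGF_VEC_CM and 184, 176 and 180 in TGF_KD_CM. Its groups also separated, at -0.55 ± 0.03 (adjusted p = 1.79e-26) and 0.17 ± 0.03 (adjusted p = 6.32e-07), although 7.25% of its exon bases overlap Ap4m1 on the other strand. Mcm6 rose by 0.12 ± 0.03 with inhibition medium (adjusted p = 7.58e-05). Mcm2 and Mcm3 also fell between the vector groups, by 0.25 ± 0.03 (adjusted p = 1.17e-13) and 0.34 ± 0.03 (adjusted p = 5.1e-18). They rose by 0.10 ± 0.02 (adjusted p = 0.000515) and 0.11 ± 0.03 (adjusted p = 0.000269) with overexpression medium, calls that did not pass with upper quartile factors. With inhibition medium neither passed, at -0.01 ± 0.03 and 0.02 ± 0.03.

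The loaders of the helicase differed from each other. Cdt1, which brings MCM to the origin and is blocked by geminin after S phase begins, had CPM of 100, 92.2 and 94.8 in VEC_CM, 107, 118 and 103 in OE_CM, 74.2, 73.9 and 71.3 in TGF_VEC_CM and 77, 71.7 and 69.9 in TGF_KD_CM. OE_CM was above VEC_CM in every library, and both groups with TGF-beta1 were lower and overlapped each other. Its change was 0.19 ± 0.04 with overexpression medium (adjusted p = 5.85e-05), -0.39 ± 0.04 between the vector groups (adjusted p = 9.83e-12) and -0.01 ± 0.04 with inhibition medium (adjusted p = 0.941). Cdc6, the ATPase that works with Cdt1, had CPM of 50.6, 57.3 and 55.9 in VEC_CM, 47.5, 50.7 and 53.2 in OE_CM, 37.5, 40.6 and 39.7 in TGF_VEC_CM and 36.6, 37.8 and 38.4 in TGF_KD_CM. VEC_CM and OE_CM overlapped, as did the groups with TGF-beta1, which were all lower. It fell by 0.48 ± 0.05 on the log2 scale between the vector groups (adjusted p = 1.04e-12). Its fall by 0.12 ± 0.05 with overexpression medium (adjusted p = 0.0441) was lost without VEC_CM replicate 2 or 3 and without OE_CM replicate 1 or 2. Orc6, the smallest ORC subunit, had CPM of 51, 52.6 and 51.1 in VEC_CM, 66.5, 60.8 and 57.6 in OE_CM, 55, 49.6 and 54.3 in TGF_VEC_CM and 51.4, 51.9 and 48.6 in TGF_KD_CM. Only OE_CM stood apart, above all VEC_CM libraries, with a rise of 0.26 ± 0.05 (adjusted p = 3.78e-06), while the vector groups differed by 0.04 ± 0.05 (adjusted p = 0.501). Orc1, the largest ORC subunit, rose by 0.17 ± 0.06 with overexpression medium (adjusted p = 0.00822) and fell by 0.43 ± 0.06 between the vector groups (adjusted p = 1.48e-09), with 10.8% of its exon bases shared with Gm12743 on the other strand.

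**Figure D3:**
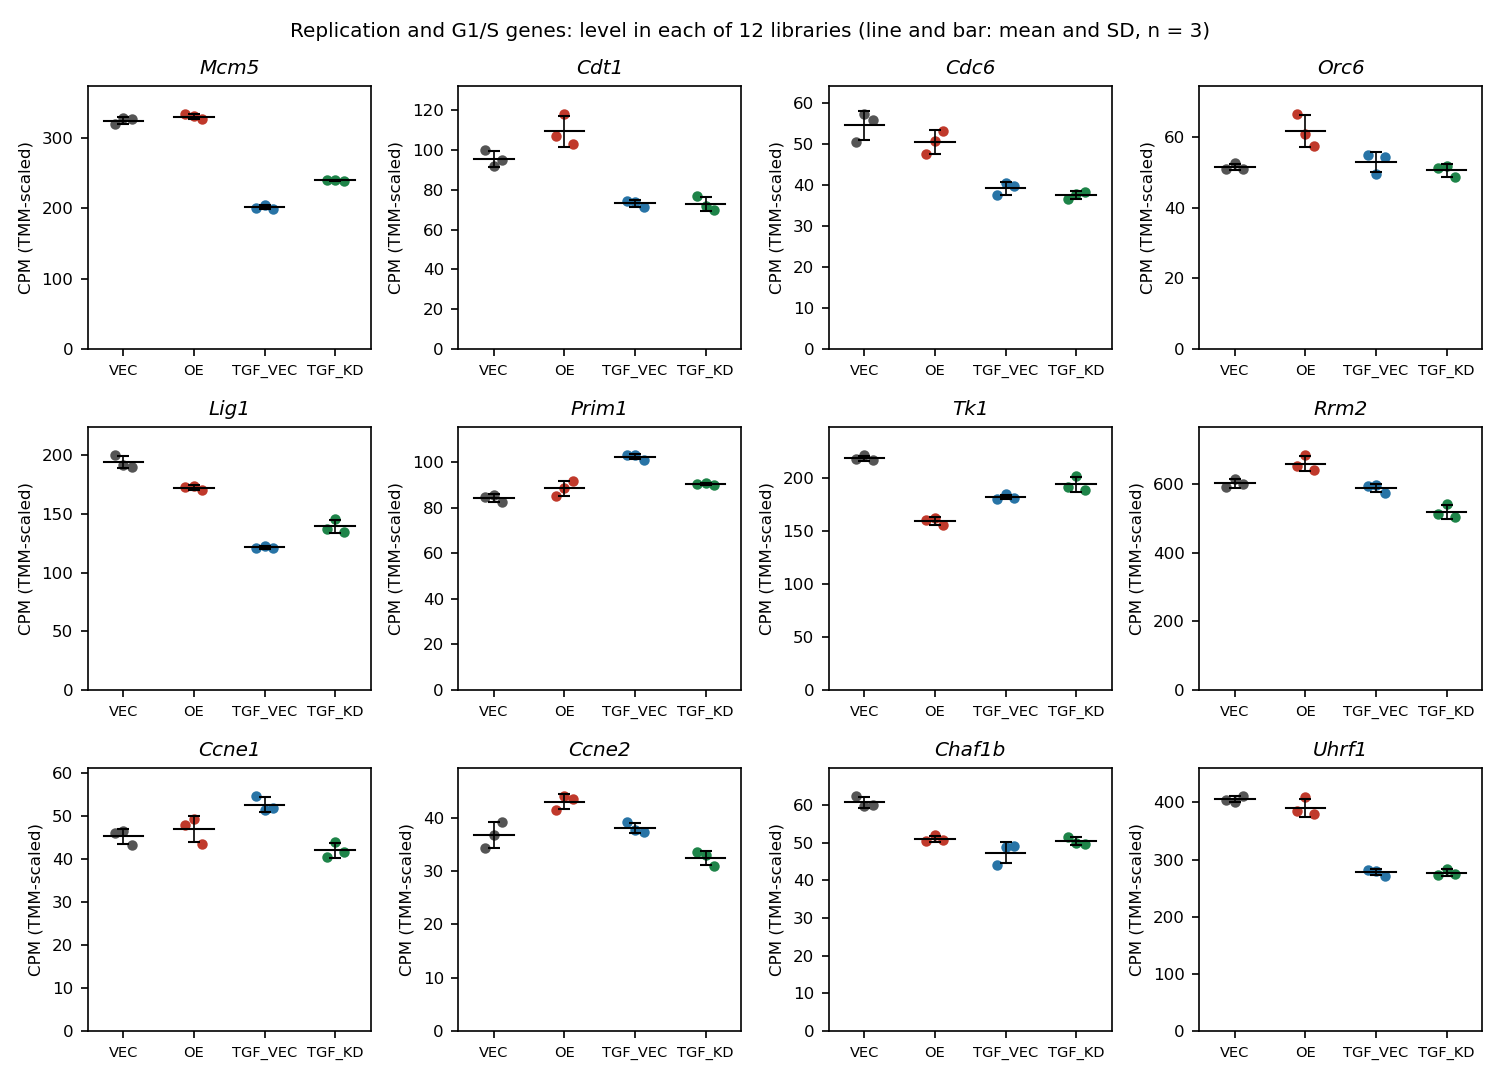
CPM of 12 of the genes in each of the 12 libraries (points), with the mean and SD of 3 libraries per group (line and bar), for VEC_CM, OE_CM, TGF_VEC_CM and TGF_KD_CM from left to right. Mcm5 and Lig1 are lowest in TGF_VEC_CM and higher in TGF_KD_CM, Tk1 is lowest in OE_CM, and Prim1 and Ccne1 are highest in TGF_VEC_CM.

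Of the 6 genes of helicase activation, Mcm10 rose and Gins3 fell with overexpression medium, Mcm10 and Gins4 rose with inhibition medium, and 5 were lower in TGF_VEC_CM than in VEC_CM. The GINS complex has 4 subunits in equal number, yet their transcripts changed by different amounts. Gins1 had CPM of 36.4, 34.8 and 37.8 in VEC_CM, 32.5, 34.8 and 33.1 in OE_CM, 24.6, 25.9 and 23.5 in TGF_VEC_CM and 27.5, 25.7 and 27.2 in TGF_KD_CM. Every library with TGF-beta1 was below every library without it. The vector groups differed by -0.56 ± 0.06 (adjusted p = 3.94e-13), and the changes of -0.12 ± 0.06 and 0.12 ± 0.06 in the tests of the microRNA did not pass (adjusted p = 0.0691 and 0.1). Gins4 had CPM of 36.2, 39.5 and 35.7 in VEC_CM, 37.4, 36.1 and 36.9 in OE_CM, 26.6, 29.8 and 28.4 in TGF_VEC_CM and 32.7, 34.7 and 34.3 in TGF_KD_CM. TGF_VEC_CM was below all other groups, and Gins4 rose by 0.26 ± 0.06 with inhibition medium (adjusted p = 8.27e-05). Gins3 had CPM of 25.6, 25.5 and 24.8 in VEC_CM, 20.1, 22.7 and 23.7 in OE_CM, 21.4, 22.4 and 21.2 in TGF_VEC_CM and 22.1, 22.1 and 24.1 in TGF_KD_CM. Every VEC_CM library was above all others. Its fall by 0.19 ± 0.07 with overexpression medium (adjusted p = 0.0104) was lost without OE_CM replicate 1. Gins2 had CPM of 47.6, 49.5 and 47.3 in VEC_CM, 50.8, 49.8 and 49.2 in OE_CM, 43.3, 44.7 and 42.6 in TGF_VEC_CM and 44.7, 44 and 42.1 in TGF_KD_CM. TGF_VEC_CM was lower than VEC_CM by 0.14 ± 0.05 (adjusted p = 0.00621), but 67.3% of the exon bases of Gins2 overlap Gse1 on the other strand, and without a stated strand setting its reads cannot be told apart from those of Gse1. Cdc45, the third part of the active helicase, had CPM of 58.4, 60.7 and 60.7 in VEC_CM, 66.3, 65.4 and 60 in OE_CM, 58.6, 61.6 and 56.5 in TGF_VEC_CM and 57.2, 59.4 and 55.2 in TGF_KD_CM. The values ran from 55.2 to 66.3 CPM, the groups compared overlapped, and no comparison passed (adjusted p = 0.0673, 0.494 and 0.659). Mcm10, which helps to start the helicase, was called higher in both tests of the microRNA, at 0.11 ± 0.05 (adjusted p = 0.0311) and 0.17 ± 0.05 (adjusted p = 0.00221). Leaving out VEC_CM replicate 1 or OE_CM replicate 2 ended the first of these calls, leaving out TGF_VEC_CM replicate 1 ended the second, and the call for Gins2 was lost without TGF_VEC_CM replicate 3.

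The 9 genes of the clamp, its loader and the single-strand binding protein RPA gave 1 rise and 2 falls with overexpression medium, 2 rises and 3 falls with inhibition medium, and 6 falls between the vector groups. Pcna, the clamp itself, had CPM of 275, 285 and 281 in VEC_CM, 275, 286 and 287 in OE_CM, 215, 220 and 225 in TGF_VEC_CM and 227, 242 and 234 in TGF_KD_CM. VEC_CM and OE_CM overlapped at 275 to 287, TGF_VEC_CM was lowest, and TGF_KD_CM was above it in every library. The changes were 0.01 ± 0.03 (adjusted p = 0.737), 0.09 ± 0.03 (adjusted p = 0.0048) and -0.35 ± 0.03 (adjusted p = 8.17e-18), in the order overexpression, inhibition and vector groups, and the first turned to -0.075 (adjusted p = 0.0127) with upper quartile factors. The call with inhibition medium was lost without TGF_VEC_CM replicate 1 and without TGF_KD_CM replicate 2. Rfc3 had CPM of 64.7, 61.8 and 63.1 in VEC_CM, 69.3, 68.5 and 65.3 in OE_CM, 43.6, 46.8 and 48.6 in TGF_VEC_CM and 51.6, 56.5 and 52.5 in TGF_KD_CM. The 4 groups did not overlap, with OE_CM highest and TGF_VEC_CM lowest. Among the 5 subunits of the clamp loader it alone rose with inhibition medium, by 0.21 ± 0.05 (adjusted p = 0.000129), and it had the largest fall between the vector groups, -0.45 ± 0.05 (adjusted p = 2.03e-13). Rfc4 fell by 0.20 ± 0.06 and Rfc5 by 0.11 ± 0.04 with inhibition medium (adjusted p = 0.00179 and 0.0129), Rfc2 fell by 0.15 ± 0.04 with overexpression medium (adjusted p = 0.000456), and Rfc1 passed in no comparison. Rfc2, Rfc4 and Rfc5 share 15.1%, 12.7% and 10.7% of their exon bases with genes on the other strand. Rpa2, the middle subunit of RPA, had CPM of 63.9, 63.4 and 59.1 in VEC_CM, 66.4, 73.9 and 65.6 in OE_CM, 58.6, 53.6 and 55.3 in TGF_VEC_CM and 57, 59.9 and 57.9 in TGF_KD_CM. OE_CM was above VEC_CM in every library, by 0.14 ± 0.05 (adjusted p = 0.00494), a call lost without OE_CM replicate 2 and with upper quartile factors. Rpa1, the large subunit, fell in all 3 comparisons, by 0.07 ± 0.03, 0.11 ± 0.03 and 0.10 ± 0.03, and Rpa3 passed in none. The first of the falls of Rpa1 did not pass on leaving out VEC_CM replicate 2 or OE_CM replicate 1 or 3. On leaving out TGF_VEC_CM replicate 2, the fall of Rfc5 with inhibition medium and that of Rpa2 between the vector groups did not pass.

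With overexpression medium 5 of the 9 genes of polymerases, primase and fragment maturation fell, where 25.7% of all genes fell. The other 4 did not pass, among them Prim1 (0.07), Pola1 (0.04) and Fen1 (0.01). Pole, the catalytic subunit of the leading-strand polymerase, had CPM of 156, 148 and 150 in VEC_CM, 137, 134 and 135 in OE_CM, 122, 119 and 118 in TGF_VEC_CM and 139, 129 and 131 in TGF_KD_CM. The OE_CM libraries were below all VEC_CM libraries, and TGF_KD_CM was above all TGF_VEC_CM libraries. It fell by 0.16 ± 0.03 with overexpression medium (adjusted p = 1.14e-05) and rose by 0.16 ± 0.03 with inhibition medium (adjusted p = 3.65e-05). Pole2, its partner subunit, had CPM of 43.5, 49 and 48.2 in VEC_CM, 39.4, 44.9 and 37.8 in OE_CM, 42.5, 39.2 and 40 in TGF_VEC_CM and 39.8, 37.6 and 35.6 in TGF_KD_CM. Its libraries overlapped in both tests of the microRNA, although the fall by 0.21 ± 0.06 with overexpression medium passed (adjusted p = 0.00142). Lig1, the ligase that joins Okazaki fragments, had CPM of 200, 192 and 190 in VEC_CM, 173, 174 and 170 in OE_CM, 121, 123 and 121 in TGF_VEC_CM and 137, 146 and 135 in TGF_KD_CM. The 4 groups did not overlap at all. Lig1 fell by 0.17 ± 0.03 with overexpression medium (adjusted p = 9.54e-07), rose by 0.20 ± 0.03 with inhibition medium (adjusted p = 2.1e-07) and was 1.60-fold lower in TGF_VEC_CM than in VEC_CM (log2 change -0.67 ± 0.03, adjusted p = 1.96e-29). Pola1, the polymerase that extends primers, had CPM of 101, 110 and 99.5 in VEC_CM, 109, 105 and 105 in OE_CM, 102, 108 and 107 in TGF_VEC_CM and 98.5, 106 and 96.9 in TGF_KD_CM. All groups overlapped and no comparison passed (adjusted p = 0.383, 0.0942 and 0.489). Prim1, the catalytic primase subunit, ran against the set: it averaged 84.2 ± 1.64 CPM in VEC_CM, 88.5 ± 3.45 in OE_CM, 102.4 ± 1.55 in TGF_VEC_CM and 90.3 ± 0.52 in TGF_KD_CM (SD, n = 3). It was higher in TGF_VEC_CM than in VEC_CM by 0.28 ± 0.04 (adjusted p = 3.09e-10) and fell by 0.18 ± 0.04 with inhibition medium (adjusted p = 1.91e-05). Pold1, the catalytic subunit of the lagging-strand polymerase, fell in all 3 comparisons, by 0.12 ± 0.04, 0.11 ± 0.04 and 0.31 ± 0.04, the second of which was lost without TGF_VEC_CM replicate 2.

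Of the 4 genes of nucleotide supply, Tk1 and Tyms rose and Rrm1 and Rrm2 fell with inhibition medium. With overexpression medium Tk1 fell, Rrm2 rose and the others did not pass, and between the vector groups Tk1 and Tyms fell and the others did not pass. Tk1, thymidine kinase of the salvage pathway, had CPM of 218, 222 and 217 in VEC_CM, 161, 163 and 156 in OE_CM, 181, 185 and 182 in TGF_VEC_CM and 192, 202 and 189 in TGF_KD_CM. OE_CM was the lowest group and VEC_CM the highest, with no overlap between any 2 groups. It fell by 0.45 ± 0.03 with overexpression medium (adjusted p = 4.34e-22), 1.37-fold, the largest change of any of the 45 genes in either test of the microRNA and the only 1 there that passed the test against a 1.2-fold null hypothesis. Its rise with inhibition medium was 0.09 ± 0.03 (adjusted p = 0.00619) and was lost without TGF_VEC_CM replicate 1 or 3 or TGF_KD_CM replicate 2. Rrm2, the S phase subunit of ribonucleotide reductase, had CPM of 590, 616 and 601 in VEC_CM, 653, 684 and 642 in OE_CM, 593, 597 and 575 in TGF_VEC_CM and 512, 543 and 503 in TGF_KD_CM. OE_CM was highest, TGF_KD_CM lowest, and VEC_CM and TGF_VEC_CM overlapped. It rose by 0.13 ± 0.03 with overexpression medium (adjusted p = 1.67e-05, a call that did not pass with upper quartile factors) and fell by 0.18 ± 0.03 with inhibition medium (adjusted p = 4.61e-08). Tyms, thymidylate synthase, had CPM of 84.5, 93.6 and 93.4 in VEC_CM, 88.7, 87.4 and 91 in OE_CM, 73, 78.3 and 71.7 in TGF_VEC_CM and 81.6, 86 and 82.9 in TGF_KD_CM. All TGF_VEC_CM libraries were below those of VEC_CM and of TGF_KD_CM, with changes of -0.28 ± 0.04 (adjusted p = 5.78e-09) and 0.17 ± 0.04 (adjusted p = 0.000349). Rrm1, the large reductase subunit, fell by 0.06 ± 0.03 with inhibition medium (adjusted p = 0.0472), a call lost without TGF_VEC_CM or TGF_KD_CM replicate 3. Within libraries, the FPKM ratio of Tk1 to Rrm2, a pair chosen after its values were seen, was 0.42 ± 0.0057 in VEC_CM, 0.281 ± 0.00446 in OE_CM, 0.359 ± 0.00651 in TGF_VEC_CM and 0.433 ± 0.00255 in TGF_KD_CM (SD, n = 3).

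All 3 G1/S regulators fell with inhibition medium, where 20.2% of all genes fell. Between the vector groups Ccne1 was higher and the others did not pass. Ccne1 encodes cyclin E1, which with its kinase starts S phase, and had CPM of 46, 46.5 and 43.2 in VEC_CM, 47.9, 49.3 and 43.5 in OE_CM, 54.6, 51.4 and 51.9 in TGF_VEC_CM and 40.5, 43.9 and 41.7 in TGF_KD_CM. TGF_VEC_CM was above all other libraries. The change was -0.32 ± 0.05 with inhibition medium (adjusted p = 9.42e-08), the largest fall of that comparison among the 45, and 0.22 ± 0.05 between the vector groups (adjusted p = 0.000104). Ccne2, encoding cyclin E2, had CPM of 34.3, 36.7 and 39.2 in VEC_CM, 41.4, 44 and 43.5 in OE_CM, 39.2, 37.7 and 37.3 in TGF_VEC_CM and 33.5, 32.9 and 30.9 in TGF_KD_CM. OE_CM was above VEC_CM and TGF_KD_CM below TGF_VEC_CM in every library. Ccne2 rose by 0.23 ± 0.05 with overexpression medium (adjusted p = 0.000211) and fell by 0.23 ± 0.05 with inhibition medium (adjusted p = 0.000249). Of its exon bases, 17.4% overlap Ints8 on the other strand. E2f1, an activating E2F factor, had CPM of 83.7, 73.3 and 81.8 in VEC_CM, 81.5, 79.3 and 81.7 in OE_CM, 89.8, 83.1 and 80.7 in TGF_VEC_CM and 70.9, 73.9 and 74.7 in TGF_KD_CM. TGF_KD_CM was below every TGF_VEC_CM library, a fall by 0.21 ± 0.04 (adjusted p = 2.98e-05), and the other groups overlapped. Set against the helicase, the FPKM ratio of Ccne1 to Mcm5, also chosen after its values were seen, was 0.245 ± 0.011 in VEC_CM, 0.249 ± 0.0145 in OE_CM, 0.46 ± 0.0176 in TGF_VEC_CM and 0.308 ± 0.012 in TGF_KD_CM.

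Of the 4 chromatin genes, Chaf1a, Chaf1b and Slbp fell with overexpression medium, Chaf1a fell with inhibition medium, and all 4 were lower in TGF_VEC_CM than in VEC_CM. Chaf1b, a subunit of the CAF-1 complex that deposits histones behind the fork, had CPM of 62.3, 59.6 and 60 in VEC_CM, 50.5, 51.9 and 50.7 in OE_CM, 44.1, 48.8 and 49 in TGF_VEC_CM and 51.5, 50 and 49.5 in TGF_KD_CM. VEC_CM was the highest group, with a fall by 0.25 ± 0.05 in OE_CM (adjusted p = 3.1e-06) and by 0.36 ± 0.05 in TGF_VEC_CM (adjusted p = 3.39e-10). Uhrf1, which guides maintenance DNA methylation, had CPM of 405, 401 and 411 in VEC_CM, 385, 409 and 379 in OE_CM, 282, 280 and 272 in TGF_VEC_CM and 273, 284 and 275 in TGF_KD_CM. The libraries formed 2 levels, without and with TGF-beta1, that did not overlap, at a log2 difference of -0.55 ± 0.03 between the vector groups (adjusted p = 7.37e-28). Neither test of the microRNA passed for Uhrf1 in the main fit (adjusted p = 0.0704 and 0.925). Its change with overexpression medium, -0.055 ± 0.026, did pass as a fall under several other settings. Among these were upper quartile factors, limma on log2(FPKM + 1), a fit of only the groups compared and the replicate block. Slbp, the protein that binds the end of histone messenger RNA, had CPM of 124, 126 and 123 in VEC_CM, 113, 114 and 113 in OE_CM, 108, 111 and 111 in TGF_VEC_CM and 106, 112 and 110 in TGF_KD_CM. VEC_CM was above all other libraries, by 0.14 ± 0.03 over OE_CM (adjusted p = 0.00028) and 0.18 ± 0.03 over TGF_VEC_CM (adjusted p = 1.89e-06). Chaf1a fell in all 3 comparisons, by 0.12 ± 0.03, 0.13 ± 0.03 and 0.07 ± 0.03, but 52.5% of its exon bases overlap Ubxn6 on the other strand, and its call between the vector groups (adjusted p = 0.0482) was lost on leaving out any 1 library of either group.

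**Figure D4:**
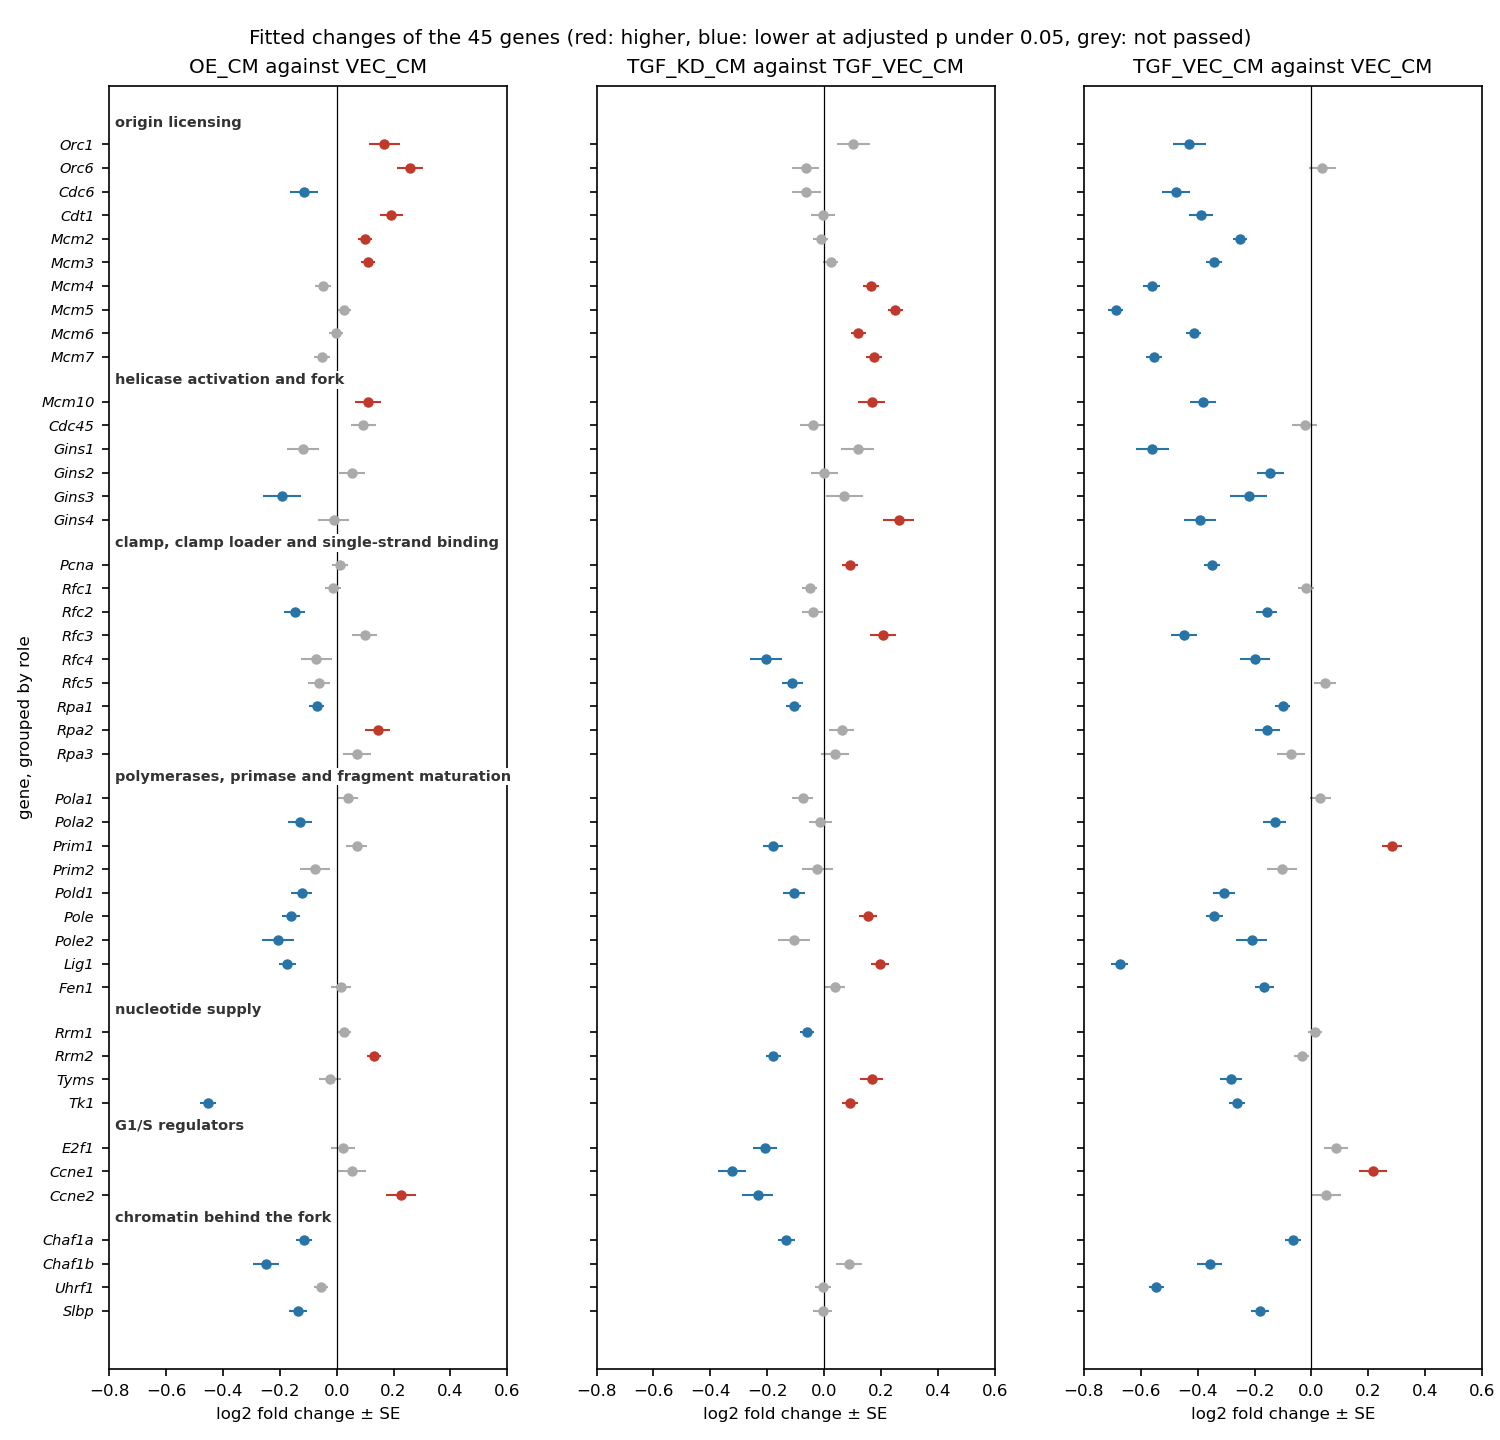
Fitted log2 fold change and SE of each of the 45 genes, grouped by role, in 3 comparisons; red is higher and blue lower at an adjusted p under 0.05, grey did not pass. Most points of the right panel lie below 0 (32 blue, 2 red), whereas the other panels hold 9 red and 13 blue, and 12 red and 11 blue.

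The 2 tests of the microRNA share no library, so their effects could be compared directly by an edgeR contrast of the inhibition effect minus the overexpression effect. It was higher for 13 of the 45 genes and lower for 10, where the shares over all genes were 26.8% and 25.6% (28.9% and 22.2% of the 45). With upper quartile factors the split was 18 and 7, at a median of 0.089 beside 0.086 for all genes. With limma on log2(FPKM + 1) it was 18 and 6, at a median of 0.066 beside 0.044 for all genes. Only Mcm10 was called higher in both tests, and Rpa1, Pold1 and Chaf1a were called lower in both. Pole, Lig1 and Tk1 were called lower with overexpression and higher with inhibition medium, and Rrm2 and Ccne2 the other way round. For these 5 the difference itself passed: 0.32 ± 0.05 for Pole (adjusted p = 8.24e-09), 0.37 ± 0.04 for Lig1 (adjusted p = 2.34e-11), 0.54 ± 0.04 for Tk1 (adjusted p = 7.09e-19), -0.31 ± 0.04 for Rrm2 (adjusted p = 9.08e-11) and -0.46 ± 0.08 for Ccne2 (adjusted p = 3.85e-07). These 5 differences passed under all 19 alternatives with the same null hypothesis, and those of Tk1, Lig1 and Ccne2 also passed against a null hypothesis of at most 1.2-fold. TGF-beta1 is present in only 1 of the 2 tests, so the difference holds that as well as the direction of the change in the microRNA, and these cannot be told apart. Cdc45, Gins1, Gins2, Rfc1, Rpa3, Pola1, Prim2, Fen1 and Uhrf1 were called in neither test in the main fit. Several of them, such as Uhrf1 and Gins1, passed with overexpression medium under other settings.

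**Figure D5:**
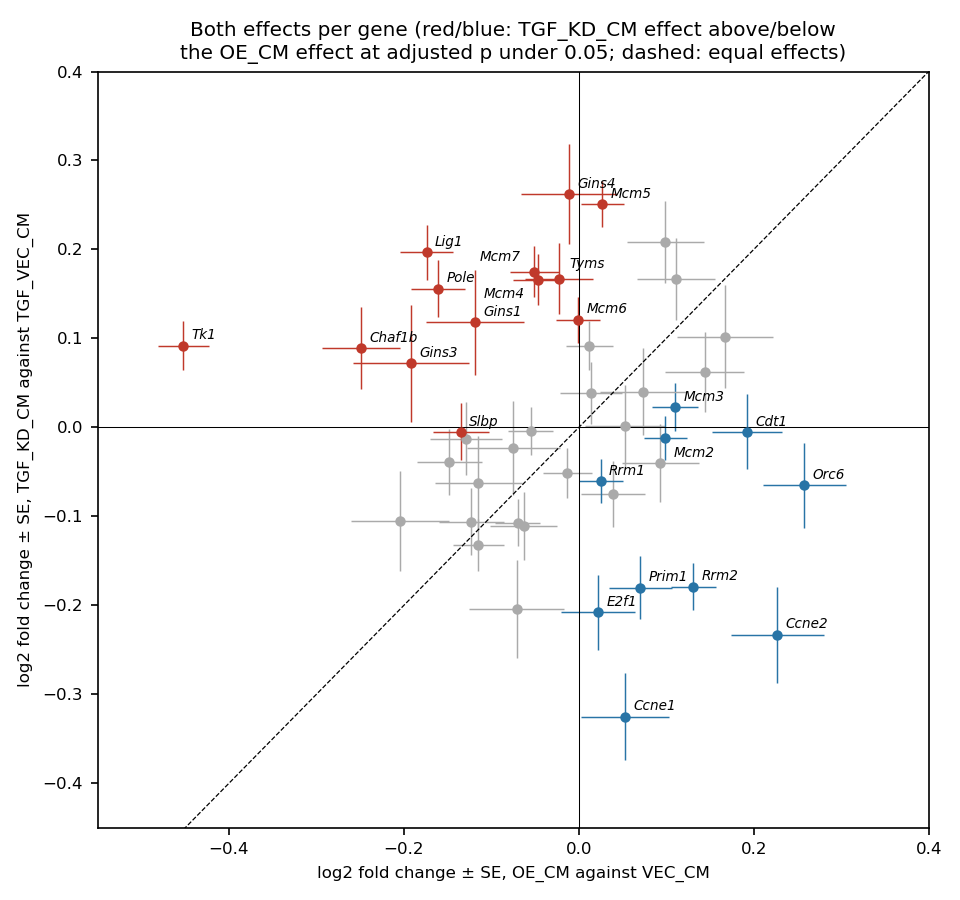
Log2 fold change with overexpression medium (x axis) against that with inhibition medium (y axis) for the 45 genes, with SE bars; red and blue mark genes whose inhibition effect is above (13) or below (10) the overexpression effect at an adjusted p under 0.05, and the dashed line marks equal effects. Tk1 lies far left and above 0, and Ccne2 far right and below 0.

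Across the 12 libraries the set was coherent for some genes and not for others. The correlation of a gene's log CPM with the mean of the other 44 was above 0.8 for 20 of the 45 genes. It was highest for Uhrf1 (r = 0.98), Cdc6 (r = 0.96) and Pold1 (r = 0.95), and lowest for Prim1 (r = -0.67), Rfc5 (r = -0.05), Ccne1 (r = -0.02) and Tk1 (r = 0.04). Outside the set, the genes whose log CPM most resembled the mean of the 45 over 12 libraries were Lmnb1 (r = 0.992), Scd2 (r = 0.986), Lbr (r = 0.984), Acat2 (r = 0.983) and Scd1 (r = 0.983). Lmnb1 and Lbr encode proteins of the nuclear lamina and inner nuclear membrane, and the other 3 act in lipid synthesis. These values are descriptions: the libraries share 4 group means, and 2 of the groups shared TGF-beta1.

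Of 69 other listed genes of the G1/S and replication pathway, 65 were tested. Between the vector groups 19 of the 65 rose and 29 fell, where 28.9% of all genes rose and 29.4% fell, and the median log2 change was -0.07, beside -0.21 for the 45. With overexpression medium 20 of the 65 rose and 16 fell (28.4% and 25.7% of all genes), and with inhibition medium 12 rose and 29 fell (23.0% and 20.2% of all genes). Among the G1 cyclins and kinases, each of the D-type cyclin genes passed in at least 2 of the 3 comparisons. Ccnd3 averaged 98.6 ± 4.12 CPM in VEC_CM and 64.7 ± 1.38 in OE_CM, a log2 fall by 0.61, and Cdc25a, a phosphatase that activates the cyclin E kinase, rose by 0.47. Ccnd1 averaged 596 ± 14.4 CPM in TGF_VEC_CM and 421.9 ± 10.3 in TGF_KD_CM, a fall by 0.50, whereas its partner kinase Cdk4 rose by 0.29. Between the vector groups Cdk4 fell by 0.43 and Ccnd1 by 0.32.

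Of 7 listed inhibitors of cyclin-dependent kinases, 5 were tested. They gave 0 rises and 3 falls with overexpression medium, 2 and 3 with inhibition medium, and 3 and 2 between the vector groups. With overexpression medium Cdkn2d fell by 0.78, Cdkn2c by 0.49 and Cdkn1b by 0.34. With inhibition medium Cdkn2c rose by 0.34 and Cdkn1b by 0.32, and Cdkn2d fell by 0.23. Between the vector groups Cdkn2c fell by 0.67 and Cdkn1b by 0.27, and Cdkn1a, encoding p21, rose by 0.20. Cdkn2d (0.11) and Cdkn1c were also called higher there. Cdkn1c was close to absent, at means of 0.0091 CPM in VEC_CM and 0.35 CPM in TGF_VEC_CM. The 9 other E2F and DP factors gave 4 rises and 2 falls with overexpression medium, 7 falls with inhibition medium, and 5 rises and 1 fall between the vector groups. Over all genes 28.4% rose and 25.7% fell with overexpression medium, 23.0% and 20.2% with inhibition medium, and 28.9% and 29.4% between the vector groups. E2f4, a mainly repressive factor, rose by 0.44 with overexpression medium, and Tfdp1, the DNA-binding partner of E2F, rose by 0.30 there, fell by 0.20 with inhibition medium and was higher by 0.28 in TGF_VEC_CM. E2f8, an atypical repressor, fell by 0.33 with inhibition medium and was higher by 0.23 in TGF_VEC_CM.

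Among the remaining replication genes, Orc2 rose by 0.48 and Orc5 by 0.18 with overexpression medium. There Dut, which removes dUTP, rose by 0.34 and the polymerase subunit gene Pole3 by 0.28. Dscc1, of an alternative clamp loader, fell by 0.34 and Dnmt1 by 0.15 with the same medium. With inhibition medium the small polymerase subunits Pold4 and Pold2 fell by 0.75 and 0.54, Dut by 0.28, Orc2 by 0.19 and the methyltransferase gene Dnmt1 by 0.18, and Dbf4, the activator of the Cdc7 kinase, rose by 0.13. Between the vector groups Timeless, a fork protection gene, fell by 0.65, Chek1 by 0.48, Dtl by 0.36, Mcmbp by 0.32 and Dbf4 by 0.20, and Pold4 rose by 1.29 from 5.24 ± 0.923 to 12.9 ± 1.04 CPM.

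Most of the 20 genes of mitosis and G2/M were also lower in TGF_VEC_CM. Between the vector groups 15 of the 20 fell and 2 rose, where 29.4% of all genes fell and 28.9% rose, with a median log2 change of -0.21, beside -0.21 for the 45. Cdc20, the activator of the anaphase-promoting complex, fell by 0.94, Kif20a by 0.50 and Ccnb2 by 0.48. With inhibition medium 10 of the 20 rose and 4 fell (23.0% and 20.2% of all genes), and the smallest p-values were those of Cdc20 (0.37), Kif20a (0.28) and Ccnb2 (0.25). With overexpression medium 4 rose and 5 fell (28.4% and 25.7% of all genes), among the latter Nusap1 by 0.33, Ccnb2 by 0.23 and Mki67 by 0.17.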

How the data were processed

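Messenger RNA was measured in 12 libraries of mouse cardiac fibroblasts, 3 in each of 4 groups. The authors deposited a table of raw whole-number counts per gene symbol and a table of FPKM of the same genes and libraries, in which each count is divided by the column total and by a single length per gene. The submitters' processing notes name the build GRCm38 (mm10). What aligned and counted the reads, with which strand setting and gene annotation, is not given in the sources used here. Titles gave the group and replicate number of each library, since in OE_CM and TGF_KD_CM the treatment label reads miR-549ay for replicate 2 and miR-550ay for replicate 3.

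The deposited counts entered edgeR 4.0.16 (R 4.3.3). Its filterByExpr kept 14400 of 24619 genes, with 99.95% or more of each library's counts. TMM factors were used, and a robust quasi-likelihood model with a mean per group was fitted to all 12 libraries (common biological coefficient of variation 0.0341). Two-sided p-values were adjusted by Benjamini and Hochberg's method over all genes tested, with a threshold of 0.05. The standard error (SE) is the log2 change divided by the square root of F. No set test was made. The script was tested on simulated data.

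Depth was 33379207 to 37226153 counts per library. Replicates correlated at r = 0.992 to 0.994 across genes with a chi-square per gene of 2.93 to 4.29, so none was a repeat of another. Alternatives were other scalings, filters and fits, DESeq2 1.42.0, limma 3.58.1 on log2(FPKM + 1) for genes with FPKM of at least 1 in 3 libraries, a replicate block, a test against a 1.2-fold change, and each library left out.

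The 45 genes and all other lists were chosen with earlier results of these data known. Values in every library are given for the 6 largest changes past the threshold in each comparison and for genes fixed per role, and of other pathway lists the 2 or 3 genes of smallest p are named. Positions and promoters come from RefSeq GRCm38.p6 and exon overlaps from GENCODE M21.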

Additional observations from a re-analysis of the deposited data

Results flagged for a closer look

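The effect of inhibition medium (TGF_KD_CM against TGF_VEC_CM) differed from that of overexpression medium (OE_CM against VEC_CM) for 23 of the 45 genes in edgeR's test of the difference, 18 of them among the genes whose values in every library are given above. The shares were near those of all genes: 28.9% of the 45 were higher and 22.2% lower, beside 26.8% and 25.6% of all genes. Values are the log2 inhibition effect minus the log2 overexpression effect. The inhibition effect was the higher for Tk1 (0.54), Lig1 (0.37), Chaf1b (0.34), Pole (0.32), Gins4 (0.27), Gins3 (0.26), Gins1 (0.24), Mcm7 (0.23), Mcm5 (0.22), Mcm4 (0.21), Tyms (0.19) and Slbp (0.13). It was the lower for Ccne2 (-0.46), Ccne1 (-0.38), Orc6 (-0.32), Rrm2 (-0.31), E2f1 (-0.23) and Cdt1 (-0.20). The difference for Gins1 was lost without VEC_CM replicate 3 or TGF_VEC_CM replicate 3, that for Gins3 without OE_CM replicate 1 or TGF_KD_CM replicate 3, and that for Slbp without OE_CM replicate 3, TGF_VEC_CM replicate 1 or TGF_KD_CM replicate 2. The difference for Cdt1 did not pass with limma on FPKM.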

How the results depend on the processing

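With upper quartile factors, 3 of the 45 genes were higher and 26 lower in OE_CM (median -0.098, beside -0.095 for all genes), the median between the vector groups was -0.185, that of the difference between the effects was 0.089, and the overexpression changes of Mcm5 (-0.06) and Pcna (-0.075) reversed. With limma on log2(FPKM + 1), 2 were higher and 22 lower in OE_CM (median -0.082, beside -0.045 for all genes). With it, 4 were higher between the vector groups (median -0.157, beside 0.015) and 6 were lower in the difference (median 0.066, beside 0.044). Without a filter that median between the vector groups was -0.229, and with a filter of 1 CPM in 3 libraries it was -0.193; the cause of these shifts was not tested. Against a 1.2-fold change, 0 rose and 1 fell in OE_CM, 0 rose and 0 fell with inhibition medium (at unadjusted p, 0 and 1), 0 rose and 17 fell between the vector groups, and 2 rose and 1 fell in the difference. The shares of all genes under this stricter test are not given here. Leaving out a library gave 7 to 11 higher and 10 to 14 lower in OE_CM, 9 to 12 and 9 to 13 with inhibition medium, 2 to 3 and 29 to 31 between the vector groups (median -0.221 to -0.174), and 12 to 15 and 8 to 13 in the difference. Same-numbered libraries deviated together with r of at most 0.044. Values this small do not settle whether replicate numbers pair the libraries. With the replicate block, 10 were higher and 14 lower in OE_CM, 12 and 11 with inhibition medium, 3 and 32 between the vector groups, and 14 and 11 in the difference. In OE_CM and VEC_CM, but not in the other comparisons, each library correlated best with its own number. Every gene had at least 713 counts in every library, and precision was lower for the genes with fewer counts: the SE of the log2 change with overexpression medium was 0.066 for Gins3 and 0.025 for Rrm1.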
